A study of Mus musculus with 6 samples.

Results

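The genes described here are 10 components of the Notch signaling pathway: the receptors Notch1, Notch2 and Notch3, the ligands Dll1, Dll3, Jag1 and Jag2, and the Hes genes Hes1, Hes5 and Hes6. They were taken by name from 35325 protein-coding and long noncoding RNA (lncRNA) genes of the GENCODE annotation, and all 10 had tags. Their expression was measured by cap analysis of gene expression (CAGE), in which the cap is used to capture RNAs and a short tag is read from where each one begins, so that tags at a position count RNAs that began there. The RNA came from nuclei. Tags were summed within 500 bp of every annotated 5′ end of a gene on its strand and are given as tags per 1000000 tags of the library (CPM).

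Both cell types are established mouse lines, each represented by 3 libraries. Mouse embryonic stem cells (mESCs) were the male R08 line, grown without feeder cells in serum with leukemia inhibitory factor, which holds such cells in the undifferentiated state. The samples labelled as mouse oligodendrocyte progenitor cells (mOPCs) were Oli-neu, a neural line derived from such progenitors and kept in N2 medium with triiodothyronine, thyroxine, bFGF and PDGF-BB. Each group therefore stands for 1 line in 1 medium. The libraries held 16657021 to 37888141 tags in mESCs and 21925299 to 40928704 tags in mOPCs. The libraries of a cell type also share 1 library label in the files, so a difference of cell type and a difference of preparation cannot be told apart.

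Notch receptors are single-pass membrane proteins that are bound by Delta-like and Jagged ligands on a neighboring cell. Ligand binding leads to cleavage of the receptor, first by an ADAM protease and then by γ-secretase, and the released intracellular domain enters the nucleus, where it joins the DNA-binding protein RBPJ and a Mastermind-like coactivator to switch on genes such as Hes1 and Hes5. Their products are basic helix–loop–helix repressors that hold back proneural genes, and in the oligodendrocyte lineage Notch signaling is known for keeping progenitors from maturing. HES6 differs from the other members of its family in that it opposes HES1.

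The labels were checked against markers. The 9 embryonic stem cell markers were all lower in mOPCs, with a summed level of 4277 to 4696 CPM in mESC libraries and 41.2 to 46.0 in mOPC libraries, and Pou5f1 and Nanog had no tag in mOPCs. The 8 oligodendrocyte progenitor markers were all higher in mOPCs, from a summed 15.9 to 16.9 up to 2525 to 2677 CPM. Among these, Pdgfra, the receptor that defines such progenitors, stood at 8.33 CPM in mOPCs against 5.51 in mESCs. Of 5 markers of mature oligodendrocytes, 4 were higher and Mobp was lower in mOPCs, and they summed to 248 to 283 CPM in mOPCs and 13.3 to 14.0 in mESCs. The 4 primitive endoderm markers summed to 29.6 to 35.7 CPM in mESCs and to at most 0.0347 in mOPCs. The 4 neuronal markers summed to 81.3 to 102 in mOPCs and 10.3 to 10.9 in mESCs, but only Syt1 was higher in mOPCs, where Rbfox3 and Snap25 had no tag. Sums in mESCs and mOPCs were 46.7 to 50.7 and 82.7 to 94.8 for 4 astrocyte markers, 17.9 to 23.4 and 9.67 to 12.3 for 4 fibroblast markers, and 1.52 to 2.22 and 0 to 0.0912 for 3 endothelial markers. Among the astrocyte markers, Slc1a3 (39.7 to 89.5 CPM) and Gfap (0.516 to 0.992) were higher in mOPCs. Aldh1l1 was lower (8.48 to 0.0231), and Aqp4 did not pass the filter on low counts. Among the fibroblast markers, Col1a1 was higher in mOPCs (2.20 to 11.1) and Thy1 lower (17.5 to 0.0197), while Col1a2 and Col3a1 did not pass that filter. The part of other cell types in the results was not tested.

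In mm10, the receptor genes span chr2:26457903-26516663 (Notch1, minus strand), chr3:98013527-98150361 (Notch2, plus strand) and chr17:32120820-32166852 (Notch3, minus strand). The ligand genes all lie on the minus strand, at chr17:15367354-15376872 (Dll1), chr7:28293553-28302238 (Dll3), chr2:137081456-137116644 (Jag1) and chr12:112907819-112929776 (Jag2). Hes1 spans chr16:30064384-30067796 and Hes5 chr4:154960923-154962371 on the plus strand, and Hes6 spans chr1:91411483-91414038 on the minus strand. Another gene on the opposite strand reaches into the counted windows of Dll1 (A930024N18Rik) and Hes5 (Gm20421), and tags were counted by strand.

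The sequences at the most used start of 7 genes are shown first because the starts carry much of what follows. A promoter entry of RefSeq (GRCm38.p6) was matched for 9 of the 10 genes, all but Hes1, and for 7 of them it held the position with the most tags. Each stretch runs 5′ to 3′ on the strand of the gene, from 40 bases before that position, and the capitals mark the recorded position and the base after it.
Notch1 (chr2:26503806-26503865, minus strand): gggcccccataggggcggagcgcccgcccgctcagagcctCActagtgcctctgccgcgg
Notch2 (chr3:98013500-98013559, plus strand): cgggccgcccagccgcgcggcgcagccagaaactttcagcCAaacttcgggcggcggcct
Notch3 (chr17:32166872-32166931, minus strand): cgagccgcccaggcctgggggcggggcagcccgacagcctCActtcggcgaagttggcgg
Dll1 (chr17:15375958-15376017, minus strand): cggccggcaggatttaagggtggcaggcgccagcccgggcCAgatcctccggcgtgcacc
Dll3 (chr7:28301767-28301826, minus strand): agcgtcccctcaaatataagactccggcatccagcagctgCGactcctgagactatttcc
Hes5 (chr4:154960882-154960941, plus strand): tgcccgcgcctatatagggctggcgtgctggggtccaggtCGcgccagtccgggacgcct
Hes6 (chr1:91413203-91413262, minus strand): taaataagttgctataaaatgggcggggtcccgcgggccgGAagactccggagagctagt

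RNA polymerase II usually starts on a purine that follows a pyrimidine. Of the 7 stretches, 6 had a pyrimidine at the recorded position and a purine at the next base, the exception being Hes6 with GA. Across 7568 genes whose leading position lay inside a RefSeq promoter, 88.6% had that pair at the recorded position and the next base, and 1.04% had it at the base before and the recorded position. The positions in the deposited files therefore usually sit on the pyrimidine, 1 base before the purine, and all positions below are given as recorded.

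Between the cell types, 6 of the 10 genes were higher in mOPCs (Notch1, Notch2, Dll1, Jag1, Hes5 and Hes6) and 4 were lower (Notch3, Dll3, Jag2 and Hes1). All 10 passed the test, edgeR's quasi-likelihood test with a Benjamini-Hochberg adjusted p under 0.05, and in none did the libraries of the cell types overlap. That is close to the background of this comparison: of 16713 genes tested, 91.2% passed the threshold, 43.4% as higher and 47.8% as lower in mOPCs, and 91.4% had libraries that did not overlap. The sizes of the changes are therefore more informative than the calls. The median log2 fold change (mOPC over mESC) of the 10 genes was 0.70 and the median of its absolute value 1.17, against -0.12 and 1.62 over all genes tested. An absolute log2 fold change over 1 was found in 5 of the 10 genes and in 65.4% of all genes. In libraries of whole cell populations, fewer cells that express a gene and less RNA per cell cannot be told apart.

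**Figure D1:**
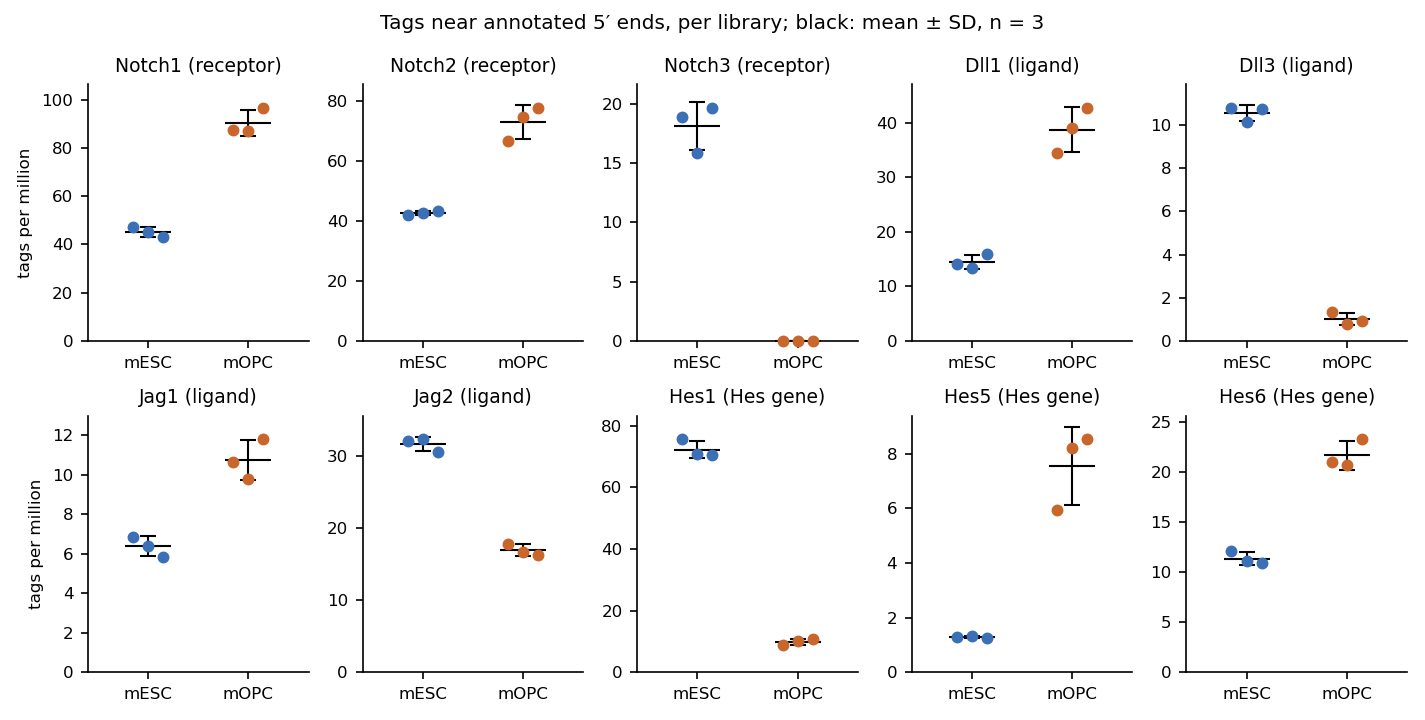
CPM within 500 bp of annotated 5′ ends for each of the 10 genes; points are the 3 libraries of each cell type, and the bar with whiskers is their mean ± SD, on a linear axis from 0. The libraries of the cell types do not overlap in any panel, and Notch3 has no tag in the 3 mOPC libraries.

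Among the receptors, Notch1 rose about 2-fold and Notch3 had no tag in the mOPC libraries. Notch1, the receptor with the broadest role in embryonic development, had 47.2, 45.2 and 43.3 CPM in mESCs and 87.5, 87.0 and 96.7 in mOPCs. All mOPC libraries stood well above all mESC libraries, with a log2 fold change of 0.93 ± 0.09 (SE, adjusted p = 1.44e-17). Notch2, its close relative, had 41.8, 42.7 and 43.4 CPM in mESCs and 66.5, 74.8 and 77.7 in mOPCs. The mESC libraries lay close together and the mOPC libraries were more spread, and the log2 fold change was 0.71 ± 0.09 (adjusted p = 3.89e-12). Counting all tags inside the gene instead gave Notch2 2.54-fold more tags in mOPCs (95% exact interval 2.40 to 2.69) against 1.75-fold near its 5′ ends. That count leaves out starts before the annotated 5′ end. It held 1607 tags in mESCs and 5137 in mOPCs, against 3095 and 6793 near the 5′ ends. Both the starts left out and the tags deeper in the gene therefore enter the difference between these folds. Tags inside the gene but away from its annotated 5′ ends came to 10.9 to 13.9 CPM in mOPCs and 3.30 to 3.80 in mESCs.

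Notch3, the receptor best known from vascular smooth muscle, had 18.9, 15.8 and 19.6 CPM in mESCs and none in any mOPC library. It had 1342 tags pooled over mESCs and 0 over mOPCs. A limit of 3 tags was set for the count of 0, about its 95% upper limit for counting error only. By that limit the level of Notch3 was at least 562-fold lower in mOPCs (edgeR, adjusted p = 8.84e-51). Some signal remained in the body of the gene, where 378 tags in mESCs stood against 8 in mOPCs, a 59.4-fold difference (95% exact interval 29.8 to 139, for counting error only). In mESCs, 51.7% ± 1.62 (SD, n = 3) of the Notch3 tags started at the single position chr17:32166891-32166891, 39 bp upstream of the annotated 5′ end in GENCODE and at the CA of the stretch shown above.

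The ligands moved in both directions. Dll1, which activates Notch receptors on neighboring cells, had 14.2, 13.4 and 15.8 CPM in mESCs and 34.4, 39.0 and 42.7 in mOPCs. Its mOPC libraries all stood more than 2-fold above its mESC libraries, and the log2 fold change of 1.36 ± 0.10 (adjusted p = 1.22e-22) was the largest rise among the ligands of the 10 genes. Jag1 had 6.86, 6.42 and 5.86 CPM in mESCs and 10.7, 9.78 and 11.8 in mOPCs, a log2 fold change of 0.68 ± 0.13 (adjusted p = 1.86e-06). Jag2, the other Jagged ligand, had 32.1, 32.3 and 30.5 CPM in mESCs and 17.8, 16.7 and 16.3 in mOPCs. It therefore went the opposite way from Jag1, with a log2 fold change of -0.97 ± 0.10 (adjusted p = 6.11e-16).

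Dll3, a divergent ligand that acts inside the cell and inhibits Notch signaling rather than activating it in trans, had 10.8, 10.1 and 10.7 CPM in mESCs and 1.32, 0.798 and 0.904 in mOPCs. It fell by 3.49 ± 0.18 on the log2 scale (adjusted p = 9.16e-35), and part of its mESC tags started far inside the gene. With positions of at least 1 CPM, chr7:28294616-28294625 held 26.1% ± 3.10 (SD, n = 3) of the mESC tags and no mOPC tag, at least 88.0-fold lower in mOPCs. With positions of at least 0.2 CPM, a threshold chosen after the data were seen, the group widened to chr7:28294590-28294654 and 66.3% ± 1.05 of the mESC tags, in exon 7 of 9 of the coding transcript and about 141 bp upstream of the annotated 5′ end of a transcript with a retained intron. The wider group held 276, 111 and 130 tags in mESCs and none in any mOPC library, a level at least 217-fold lower in mOPCs. At the same threshold, the starts at the promoter, chr7:28301779-28301786, held 83, 41 and 45 tags in mESCs and 3, 4 and 10 in mOPCs, 12.5-fold lower (95% exact interval 7.57 to 21.9). Within 500 bp of the coding transcript's 5′ end the log2 fold change of Dll3 was -1.61 ± 0.22, and over all tags inside the gene it was -5.15 ± 0.20, with 812 tags in mESCs and 31 in mOPCs, so that the size of the change depended on which starts were counted. Near the coding 5′ end mOPCs had 89 tags, so most of those lay upstream of the annotated gene. The mOPC position with the most tags, chr7:28302301-28302301, held 8 of them, 63 bp upstream of the annotated 5′ end.

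The value for Jag1 also depended on the starts counted. No Jag1 position formed a group at the threshold of 1 CPM, so its groups are those of the 0.2 CPM threshold chosen after the data were seen. By the mean over libraries, mESCs and mOPCs shared the leading position, chr2:137116340-137116340, which lies 304 bp downstream of the annotated 5′ end in exon 1. It led in 2 of the 3 mESC libraries and in all 3 mOPC libraries, and held 31 tags pooled over mESCs. The starts around it, chr2:137116322-137116346, went from 20.5% ± 2.41 of the tags in mESCs to 29.1% ± 0.328 in mOPCs. A group of starts upstream of the annotated end, chr2:137116762-137116769, held 41, 12 and 13 tags in mESCs and 0, 1 and 3 in mOPCs, 20.7-fold lower in mOPCs (95% exact interval 7.73 to 78.3). Further downstream, chr2:137116247-137116256 held none in mESCs and 8, 12 and 29 in mOPCs. A window of 100 bp around the annotated ends kept 33 tags in mESCs and 14 in mOPCs, and there the log2 fold change turned to -1.64 ± 0.46 (edgeR, adjusted p = 0.000887). Over all tags inside the gene it was 1.34 ± 0.11.

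Hes1 showed the clearest change of start site. This gene, the classical Notch target, had 75.6, 70.7 and 70.5 CPM in mESCs and 8.80, 10.3 and 10.8 in mOPCs. All mESC libraries stood more than 6-fold above the mOPC libraries, and Hes1 fell by 2.91 ± 0.10 on the log2 scale (adjusted p = 1.35e-47). The remaining mOPC tags, however, started elsewhere. The starts of the coding transcript, chr16:30065337-30065347, held 2476, 1054 and 1123 tags in mESCs but 1, 3 and 8 in mOPCs. At these starts Hes1 was 487-fold lower in mOPCs (95% exact interval 279 to 944), and their share of the gene's tags was 87.5% ± 1.74 in mESCs and 1.12% ± 0.654 in mOPCs (SD, n = 3 each).

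In mOPCs, Hes1 tags started around chr16:30064384-30064384, the annotated 5′ end of a noncoding processed transcript that reaches into the first exon of the coding one. The leading position in mOPCs, chr16:30064440-30064440, which led in 2 of the 3 libraries, lay 903 bp upstream of the leading position in mESCs and held 2, 4 and 3 tags in mESCs against 33, 48 and 46 in mOPCs. At chr16:30064357-30064357 there were 6, 3 and 10 tags against 8, 29 and 35, and at chr16:30064193-30064193 there were 52, 24 and 27 against 18, 30 and 51. These 3 positions held 14.6% ± 3.62, 7.29% ± 2.88 and 10.3% ± 1.13 of the mOPC tags, each above its share in every mESC library. The level at chr16:30064193-30064193 was nevertheless lower in mOPCs, at 0.821, 1.04 and 1.25 CPM against 1.37, 1.44 and 1.47 in mESCs. With positions of at least 0.2 CPM, a threshold chosen after the data were seen, the starts chr16:30064437-30064443 held 29.8% ± 5.00 of the mOPC tags and 0.584% ± 0.387 of the mESC tags. Tags 501 to 5000 bp upstream of the annotated gene, outside the window, were also more frequent in mOPCs, with 5.27 to 5.56 CPM against 1.62 to 1.90. With only the 5′ ends of coding transcripts counted, an alternative chosen after these positions were seen, Hes1 had 2, 5 and 10 tags in mOPCs and 2615, 1090 and 1175 in mESCs, a log2 fold change of -8.52 ± 0.17 (edgeR, adjusted p = 5.97e-69). Over all tags inside the gene it was -3.74 ± 0.10.

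Leading positions this far apart were uncommon. Of 9537 genes that reached 5 CPM in mESCs and in mOPCs, 3.91% had leading positions more than 500 bp apart, and 61.6% had the same position in both. Of the 10 genes, 7 reached that level in both cell types, of which 6 kept the same position (Notch1, Notch2, Dll1, Jag1, Jag2 and Hes6) and Hes1 did not. These positions are by the mean over the libraries of a cell type. In Notch2, Jag1 and Hes6 the position led in 2 of the 3 mESC libraries.

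**Figure D2:**
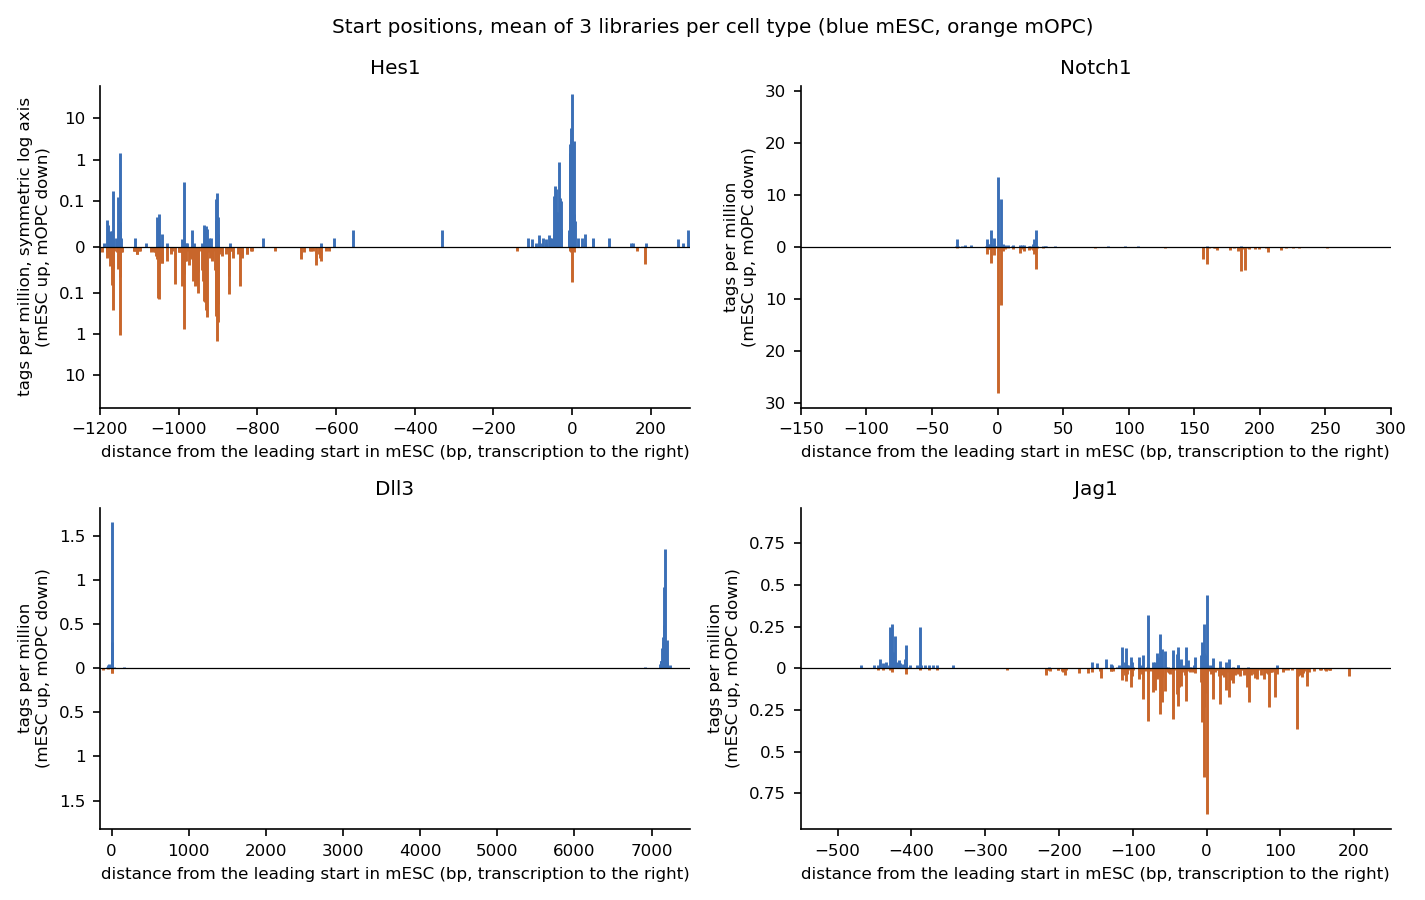
Mean CPM at each start position (3 libraries per cell type, mESC upward, mOPC downward) against the distance in bp from the leading mESC start, with transcription to the right. The axis of the Hes1 panel is symmetric logarithmic and the others are linear; Hes1 starts in mOPCs lie about 900 bp upstream, Notch1 has a second group of mOPC starts downstream, Dll3 has an internal group in mESCs only, and Jag1 has an upstream group in mESCs.

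Hes5, the second Notch target, went the opposite way from Hes1. Its level was 1.29, 1.32 and 1.25 CPM in mESCs and 5.93, 8.22 and 8.53 in mOPCs. The mESC libraries were nearly equal and the lowest mOPC library was more than 4-fold above them, and the log2 fold change was 2.50 ± 0.18 (adjusted p = 1.89e-23). The counts were small, with 94 tags pooled over mESCs and 716 over mOPCs. Its most used starts, chr4:154960921-154960922, went from 37.0% ± 9.63 of the tags in mESCs to 64.2% ± 8.30 in mOPCs, and lie directly before the annotated 5′ end.

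Hes6 had 12.1, 11.1 and 10.9 CPM in mESCs and 21.03, 20.7 and 23.3 in mOPCs. The lowest mOPC library stood above the highest mESC library, with a log2 fold change of 0.86 ± 0.11 (adjusted p = 1.42e-11). A separate start 320 bp upstream of the outermost annotated end, chr1:91414358-91414358, had no tag in mESCs and 20, 30 and 47 tags in the mOPC libraries, at least 25.7-fold lower in mESCs. The main starts of Hes6, chr1:91413214-91413222, went in share from 66.9% ± 3.19 to 45.8% ± 0.813.

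**Figure D3:**
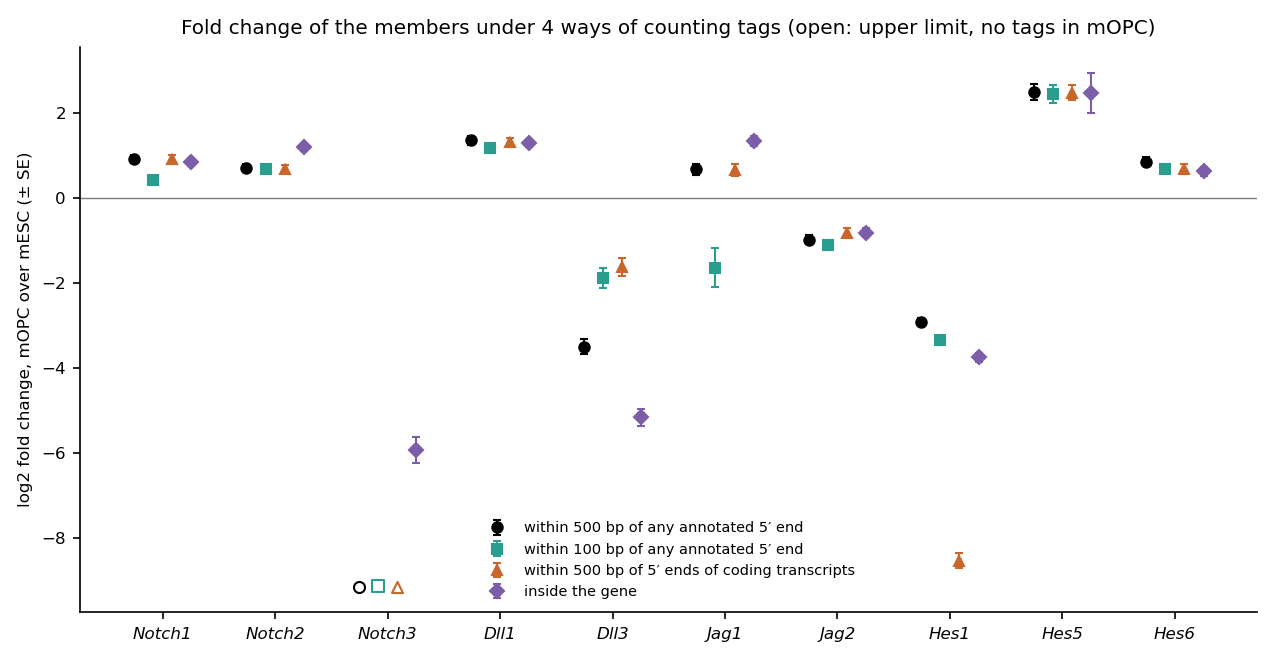
Log2 fold change (mOPC over mESC, ± SE) of the 10 genes under 4 ways of counting tags; open symbols for Notch3 are upper limits from 3 tags, since no mOPC library had a tag. Jag1 turns from 0.68 to -1.64 in the 100 bp window, Hes1 goes from -2.91 to -8.52 and Dll3 from -3.49 to -1.61 with coding 5′ ends only and to -5.15 with all tags inside the gene. Hes5 stays between 2.46 and 2.50, although inside the gene it rests on 8 tags in mESCs and 64 in mOPCs.

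Shares of starts could be tested for 9 groups of starts of Notch1, Hes1 and Hes6, the genes with at least 30 tags in every library and at least 2 groups that held 5% of the tags in either cell type. In 8 of the 9 groups the libraries of the cell types did not overlap, and each had p = 0.1 by a two-sided exact permutation test, the smallest value that 3 against 3 libraries allow (adjusted p = 0.113), so that the design cannot reach 0.05. The exception was chr1:91413170-91413170 of Hes6, with 4.51% ± 1.71 in mESCs and 6.38% ± 0.861 in mOPCs (exact permutation p = 0.2). Groups could enter through the cell type where they were high, and shares within a gene are not independent. The share of groups without overlap was not computed over all genes, so the count of 8 does not set these genes apart. In Notch1, the main starts chr2:26503796-26503833 kept the leading position but went from 87.6% ± 0.495 to 67.2% ± 0.699 of the tags. A second group of starts appeared in mOPCs within exon 1, about 193 bp downstream of the annotated 5′ end, at chr2:26503619-26503639. It held 1, 5 and 2 tags in mESCs against 285, 359 and 515 in mOPCs, 115-fold higher in mOPCs (95% exact interval 58.3 to 268). A neighboring group at chr2:26503665-26503668 held 11, 0 and 3 tags against 138, 147 and 243. Without these downstream starts, in a window of 100 bp, the log2 fold change of Notch1 was 0.44 ± 0.09.

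The promoters also differed in sharpness. In Dll1, the 2 positions chr17:15375977-15375978 held 92.4% ± 1.48 of the mESC tags and 81.6% ± 1.26 of the mOPC tags. Width was measured as the distance between the 10th and 90th percentile of the tags of the leading group. The promoter of Notch2 was broad, with a width of 57, 58 and 64 bp in the mESC and 59, 60 and 63 bp in the mOPC libraries (exact permutation p = 0.7), and that of Jag2 measured 49.0 bp in every mESC library and 50.0 ± 1.00 bp in mOPCs (p = 0.4, exact). Notch1 went from 34.0 bp in each mESC library to 30.7 ± 2.31 bp in mOPCs (exact permutation p = 0.1). Between the 25th and 75th percentile, Notch2 was narrower in mOPCs, at 21, 18 and 21 bp against 45, 43 and 45 bp (exact permutation p = 0.1), while Notch1 was 4 bp wide in all libraries.

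Tags on the opposite strand within 1000 bp upstream of the leading start, where many promoters also start RNAs in the other direction, did not always follow the level of the gene itself. Notch1 had 3.38, 3.60 and 4.50 CPM of such tags in mESCs and 0.137, 0 and 0.0733 in mOPCs, although the gene itself rose. Jag1 had 1.93, 1.98 and 1.90 in mESCs and 0, 0.0694 and 0.0244 in mOPCs, also against the direction of the gene, and most of these mESC tags lay beyond 500 bp, within which the mean was 0.316 CPM in mESCs and 0.0197 in mOPCs. Jag2 had 0.868 ± 0.189 in mESCs and 0.0386 ± 0.0472 in mOPCs, in the direction of the gene. Hes6 had 0.924, 1.74 and 1.14 in mESCs and 9.17, 8.98 and 7.38 in mOPCs, again with the gene. Opposite tags of Dll3 and Hes5 were also higher in mOPCs without overlap, at 2.31 ± 0.188 against 0.491 ± 0.0478 and 0.440 ± 0.0684 against 0.122 ± 0.0635. For Hes5 this was the direction of the gene, and for Dll3, which fell, it was against it. The Dll3 tags too lay mostly beyond 500 bp. In these 6 genes the exact permutation p was 0.1 (adjusted p = 0.167), again the smallest possible, and in the other 4 genes the libraries overlapped. The share without overlap was not computed over all genes for such tags, so the count of 6 does not set these genes apart.

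Motifs were sought in the RefSeq promoters, which run from 250 bases before to 50 bases after the annotated start. The motif of RBPJ, GTGGGAA on either strand, was found in 1 of the 9 genes with an entry, Hes5, where it began at -226 and -83 bp from the annotated start, and it occurred in 6.38% of 32851 promoters. The N-box CACNAG, a sequence bound by HES repressors, was found on either strand in 5 of the 9 genes and in 42.5% of all promoters, and in Notch1 a pair of overlapping copies on opposite strands began at -3 and -1 bp from the annotated start. In Dll1 it lay in an entry for another annotated start, which did not hold the leading position. TATAAA was found at -28 bp from the annotated start of Hes6 and in 13.6% of all promoters. The Hes5 promoter is shown whole, with both GTGGGAA motifs in capitals (the first on the opposite strand) and the annotated start at base 251.
Hes5 (chr4:154960673-154960972, plus strand): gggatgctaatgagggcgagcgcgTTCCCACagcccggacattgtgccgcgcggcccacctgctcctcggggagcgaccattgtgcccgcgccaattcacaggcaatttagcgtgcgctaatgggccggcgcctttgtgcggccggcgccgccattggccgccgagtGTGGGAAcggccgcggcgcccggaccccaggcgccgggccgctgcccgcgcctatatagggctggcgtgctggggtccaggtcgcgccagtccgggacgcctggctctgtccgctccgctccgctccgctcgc

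The rest of the pathway was described with a list of 60 further genes. Of the 58 that passed the filter on low counts, 35 were higher in mOPCs, 20 were lower and 3 did not pass the test. The share called, 94.8%, is near the 91.2% of all genes, of which 43.4% were higher and 47.8% lower. The list had a median log2 fold change of 0.55 and a median absolute value of 1.29. The receptor Notch4 had 15.4 ± 1.12 CPM in mESCs and 0.746 ± 0.191 in mOPCs (SD, n = 3 here and below) and fell by 4.49 ± 0.18 on the log2 scale, the same direction as Notch3. Its log2 fold change was -1.77 ± 0.11 over all tags inside the gene, -5.82 ± 0.22 in a window of 100 bp and -6.99 ± 0.25 with coding 5′ ends only. Among the other ligands, Dlk2 was higher in mOPCs, at 11.3 ± 0.815 against 0.118 ± 0.0527 CPM, a log2 fold change of 6.41 that was 7.08 in a window of 100 bp. Dlk1 had no tag in mOPCs and 1.93 ± 0.282 CPM in mESCs, at least 59.9-fold lower in mOPCs. Dll4 did not pass the test (0.844 ± 0.0742 and 0.616 ± 0.130, adjusted p = 0.133). Dner, at 1.77 ± 0.720 and 1.22 ± 0.0646, passed it with an adjusted p of 0.0247 but not without mESC replicate 3 (adjusted p = 0.259), and its log2 fold change was -0.55 and was -3.03 in a window of 100 bp.

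Counts by role are small and were not tested against the share of all genes that were higher (43.4%). Of 10 genes for receptor cleavage, 8 rose and 1 fell, while Adam17 did not pass the test (adjusted p = 0.849). The protease Adam10 went from 22.5 ± 0.123 to 78.4 ± 8.004 CPM and the γ-secretase subunit Aph1b from 2.98 ± 0.809 to 28.9 ± 3.15. Over all tags inside the gene, the log2 fold change of Adam10 was 2.71 against 1.73 near its 5′ ends, and that of Aph1b 3.98 against 3.29. Psenen, another subunit, fell from 29.5 ± 1.64 to 12.8 ± 0.629. Of 5 genes for receptor glycosylation, 3 rose, 1 fell and Poglut1 did not pass the test (adjusted p = 0.695). Pofut1, which adds fucose to the receptor, went from 17.3 ± 2.13 to 55.5 ± 5.26, and Lfng, which extends that fucose, from 13.4 ± 1.89 to 1.90 ± 0.461. Of 4 genes for ligand endocytosis, 3 rose, among them Neurl1a (9.01 ± 1.303 to 30.01 ± 1.90) and Mib2 (8.75 ± 1.68 to 25.2 ± 2.84), and 1 fell. The rise of Neurl1a was not seen over all tags inside the gene, where its log2 fold change was -0.024 ± 0.090.

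Genes of the nuclear complex moved in both directions. Rbpj, which carries the complex on DNA, fell from 332 ± 21.1 to 56.9 ± 4.05 CPM, while the Mastermind-like genes Maml2 and Maml3 rose from 1.02 ± 0.300 to 35.5 ± 4.39 and from 1.52 ± 0.184 to 37.0 ± 1.29. The log2 fold change of Maml2 was 5.07 ± 0.16 and was 1.99 ± 0.26 in a window of 100 bp and 3.56 ± 0.10 over all tags inside the gene. In all, 6 of the 9 genes of the nuclear complex rose and 3 fell, the latter being Rbpj, Snw1 and Kat2b. Of 11 corepressor genes, 7 rose and 4 fell, with Tle2 going from 2.30 ± 0.253 to 148 ± 7.49 and Hdac1 from 28.2 ± 2.92 to 3.88 ± 0.120. Of 10 inhibitors and turnover genes, 5 rose and 5 fell. Nrarp, a feedback inhibitor that is itself a Notch target, had 12.9, 13.0 and 13.4 CPM in mESCs and 1 tag in all mOPC libraries together, 1197-fold lower (95% exact interval 214 to 47347). Over all tags inside the gene its log2 fold change was -3.82 ± 0.40, far smaller than near its 5′ end. Dtx4 rose from 0.615 ± 0.120 to 9.25 ± 1.29, a log2 fold change of 3.79 that was 4.55 in a window of 100 bp and 2.36 over all tags inside the gene.

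Of the other Hes and Hey genes, Hey1 and Hey2, which encode relatives of the HES repressors, were higher in mOPCs. Hey2 had 1.19, 0.720 and 1.36 CPM in mESCs and 35.0, 34.3 and 33.4 in mOPCs, a log2 fold change of 4.86 ± 0.15, and Hey1 went from 4.44 ± 0.644 to 13.4 ± 1.92. Hes7, an oscillator of the segmentation clock, had 95 tags pooled over mESCs and 3 over mOPCs, 39.8-fold lower (95% exact interval 13.2 to 196), but its log2 fold change over all tags inside the gene was -0.32 ± 0.22, which did not pass the test. Hes2 had 59 tags in mESCs and none in mOPCs, at least 24.7-fold lower. Hes3 and Heyl did not pass the filter on low counts.

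**Figure D4:**
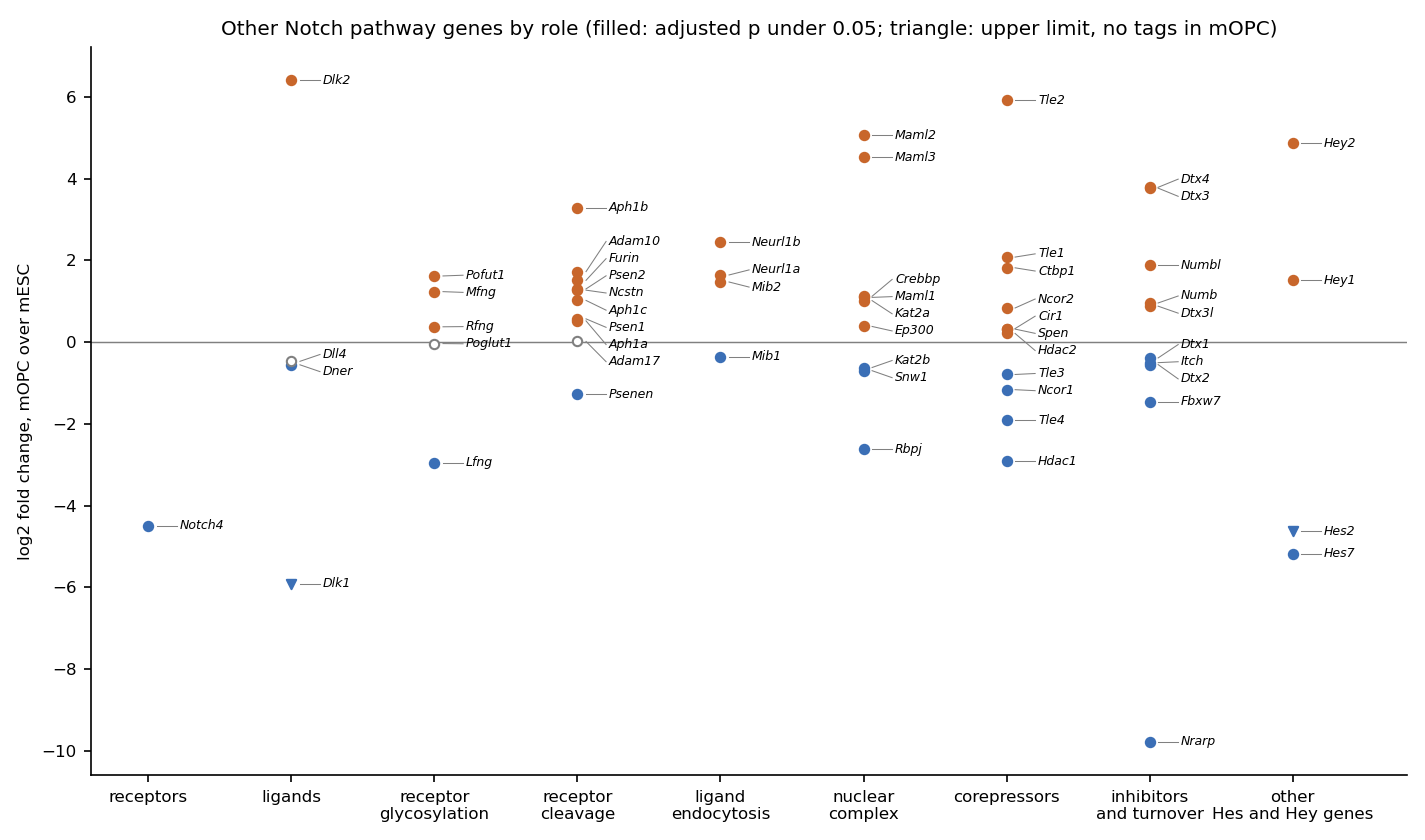
Log2 fold change (mOPC over mESC) of the 58 tested pathway genes outside the 10, by role; orange is higher and blue lower in mOPCs, filled symbols passed the adjusted p threshold of 0.05, and triangles are upper limits for genes with no tag in mOPCs. Nrarp is lowest, and Dlk2, Tle2, Maml2 and Hey2 are highest.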

How the data were processed

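CAGE libraries of nuclear RNA from mESCs (n = 3) and mOPCs (n = 3) were analyzed. The deposited values are raw counts of tags per position and strand, unnormalized, which the authors made by barcode splitting, linker trimming and unique alignment to mm10. The paper names bowtie for the alignment and the submitters' processing notes name CASAVA 1.8 and BWA 0.5.9. Tags carry no molecular identifiers, so intervals and limits from counts cover counting error only. Libraries of 16657021 to 40928704 tags make 1 tag worth less than 0.1 CPM.

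Tags within 500 bp of GENCODE M21 5′ ends were summed per gene, and a tag counted for every gene whose window held it. No tag of the 10 genes lay in another gene's window on its strand. Counts were tested with edgeR 4.0.16 (R 4.3.3; quasi-likelihood, TMM, filterByExpr, Benjamini-Hochberg over all genes tested, 0.05), with DESeq2 1.42.0 as an alternative, and the test was checked on simulated counts. There, among 16281 genes, 100 were changed by a log2 fold of 1 and 100 by 2. The test recovered 94 of each, with 8 false among 196 calls. Far fewer genes changed there than in these data, so the check does not cover a comparison with this many changes. Library totals served for CPM. The SE of an edgeR log2 fold change was its absolute value divided by the square root of the F statistic of the test. Start groups were positions of at least 1 CPM in any library, joined up to 20 bp (0.2 CPM where stated), and were compared by exact permutation tests with scipy 1.17.1. For a gene without tags in a cell type, a limit from 3 tags pooled over its libraries is given. P-values measure only the spread between these libraries. Replicates are described as batches of cells of different passage for another assay of the study. The deviations of same-numbered libraries from their group means had r = 0.00427, 0.109 and 0.00787, within the -0.152 to 0.133 of differently numbered libraries. With 3 libraries per mean, these values cannot show whether same-numbered libraries shared a batch.

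The 10 genes, the pathway list and the marker lists were chosen with earlier results of these data known. Pathway genes named were, per role, the 2 with the largest change among those past the threshold, without overlap and with at least 5 CPM in one cell type, and all other receptors, ligands, Hes and Hey genes. Rbpj and Psenen were named after their values were seen. The RNA–DNA interaction data of the study were not used here.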

Additional observations from a re-analysis of the deposited data

How the results depend on the processing

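The 10 genes passed the threshold under every alternative run: DESeq2, library totals without TMM, library totals without the most abundant position, no filter, a 100 bp window, all tags inside the gene, tags in shared windows left out, only coding 5′ ends (chosen after seeing the data), a replicate block and each library left out. Of 150 recomputed log2 fold changes of these genes, 149 kept their direction; the exception was Jag1, at -1.64 in the 100 bp window. The median log2 fold change of all genes was -0.12, -0.21 with DESeq2, -0.05 without TMM and 0.03 without the most abundant position, shifts smaller than the change of any of the 10 genes. With a replicate block, 15224 genes were called instead of 15243, and so were all 10 genes and 55 pathway genes (53 to 55 over all alternatives). Dll4 turned to 1.79 with all tags inside the gene and Neurl1a to -0.024. Dner lost its call without TMM (-0.49), without the most abundant position (-0.42), without mESC replicate 3 (-0.32) and without mOPC replicate 2 (-0.49), and Hes7 with all tags inside the gene (-0.32). The share difference at chr1:91413170-91413170 of Hes6 turned to -9.02 percentage points with joining up to 50 bp and to -10.4 with a threshold of 0.2 CPM, where it is part of a wider group. The 25th to 75th percentile turned the width difference of Notch2 from 1.00 to -24.3 bp. Opposite tags within 500 bp upstream turned to -0.0248 CPM for Dll3 and -0.101 for Hes1. The causes were not tested.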
